A study of Homo sapiens with 6 samples.

Results

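AP-1 is a dimeric transcription factor built from proteins with a basic leucine zipper (bZIP), and 9 genes of this family were followed in CAL-27 cells: FOS, FOSB, FOSL1, FOSL2, JUN, JUNB, JUND, ATF3 and MAFF. The genes were taken by symbol, and all 9 were found among the 17110 genes of the deposited table and passed the expression filter, a mean of at least 1 TPM over the 6 libraries. CAL-27 is an established human line that was derived from a tongue squamous cell carcinoma. Sphere cells, which the submitters describe as cancer stem cells obtained by growth in suspension, were compared with parental cells, the adherent cells of the same line. There were 3 RNA-seq libraries of sphere cells and 3 of parental cells, with no drug or genetic change named for either group.

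JUN-family proteins pair with themselves or with FOS-family proteins, whereas FOS-family proteins need a partner, and the dimers bind a short DNA element in promoters and enhancers. FOS, FOSB, JUNB and ATF3 are immediate early genes, transcribed within minutes of growth factor or stress signals that run through the MAP kinases, while FOSL1, FOSL2 and JUND transcripts are usually more lasting. In stratified epithelium different AP-1 subunits are used in different layers, and AP-1 drives both proliferation genes and genes of the cornified envelope. ATF3, a stress-induced factor, and MAFF, a small MAF protein that lacks an activation domain, belong to neighbouring branches of the bZIP group.

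Values are TPM, a unit of transcript abundance that corrects for transcript length, so that levels can be compared between genes, and every library has the same sum. Because TPM do not retain read numbers, depth is unknown here and values carry no counting interval. Between 15398 and 15448 genes were above 0 in sphere libraries and between 15045 and 15087 in parental libraries. The deposited table calls the adherent columns Control, which was taken as parental because the series has no other group. Separate cultures are not named for the replicates, and the p-values therefore cover the spread of these libraries alone, which may be technical. Whether both groups came from one stock of cells is not stated. In bulk RNA, fewer cells of a type and less RNA per cell cannot be told apart.

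The squamous label could be checked in both groups. The 10 listed epithelial markers are not all particular to squamous cells. Of these, 7 were higher and 3 lower in sphere libraries at an adjusted p of 0.05 in limma. Of all tested genes 35.1% were higher and 48.2% lower. KRT5, a basal keratin, stood at 5996 ± 49.0 TPM in sphere libraries and 722 ± 30.5 TPM in parental libraries (SD, n = 3 each). KRT14, its partner in basal cells and a defining marker, stood at 7705 ± 79.5 TPM in sphere libraries and only 4.69 ± 0.21 TPM in parental libraries. The 3 lower markers were KRT8, EPCAM and KRT18. With libraries scaled by median of ratios in place of TPM alone, KRT18 did not pass (log2 difference -0.04, limma adjusted p = 0.375). KRT8 stood at 496 ± 13.7 TPM in sphere libraries and 1431 ± 4.3 TPM in parental libraries. EPCAM stood at 160 ± 12.8 TPM in sphere libraries and 311 ± 9.0 TPM in parental libraries, and KRT18 at 1065 ± 29.8 TPM in sphere libraries and 1217 ± 25.1 TPM in parental libraries. The 6 listed fibroblast markers summed to 15.6 to 17.2 TPM in sphere libraries and 11.97 to 12.39 TPM in parental libraries. COL1A1 was the most abundant of them, at 16.1 ± 0.9 TPM in sphere libraries and 8.15 ± 0.06 TPM in parental libraries, while COL3A1 was listed at 0 in every parental library. Other fibroblast markers went the opposite way. PDGFRB stood at 0.087 ± 0.045 TPM in sphere libraries and 2.63 ± 0.17 TPM in parental libraries (log2 difference -1.74, limma adjusted p = 1.9e-07). COL1A2, at 0.113 ± 0.012 TPM in sphere libraries and 0.763 ± 0.137 TPM in parental libraries, and PDGFRA, at 0.07 ± 0.026 TPM in sphere libraries and 0.263 ± 0.064 TPM in parental libraries, were too low to be tested. The 6 listed leukocyte markers summed to 5.63 to 5.80 TPM in sphere libraries and 5.27 to 7.10 TPM in parental libraries. CSF1R was the highest of these, at 4.13 ± 0.12 TPM in sphere libraries and 4.66 ± 0.996 TPM in parental libraries, and PTPRC was listed at 0 in every parental library and in 2 of 3 sphere libraries. The 4 listed endothelial markers summed to 0.22 to 0.30 TPM in sphere libraries and 10.95 to 11.56 TPM in parental libraries. Most of the parental sum was CDH5, at 0.01 ± 0.017 TPM in sphere libraries and 11.0 ± 0.3 TPM in parental libraries, while TEK was listed at 0 in 1 sphere and 2 parental libraries. The part of any other cell type in the AP-1 values was not tested.

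The AP-1 family was reordered between the groups. FOS, JUNB, FOSB, ATF3, MAFF and JUND were higher in sphere libraries, and FOSL2, JUN and FOSL1 were lower. The sphere and parental ranges did not overlap for any of the 9 genes, which was also true of 84.6% of all 12261 tested genes. Tested with limma on log2(TPM + 1), sphere minus parental, all 9 passed an adjusted p of 0.05, against 83.4% of tested genes, so the count of calls by itself is near the background. By direction, 6 of 9 were higher, against 35.1% of tested genes, and 3 of 9 were lower, against 48.2%. At least 2-fold on this scale, 4 of 9 were higher, against 12.5% of tested genes, and none was lower, against 14.7%. The median difference of the 9 genes was 0.95, and that of all tested genes was -0.13. Scaling by median of ratios in place of TPM alone raised the median of all tested genes by 0.14, to 0.01, and the median of the 9 genes to 1.10. With it 6 members were still higher and FOSL2 and JUN lower, but FOSL1 did not pass.

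**Figure D1:**
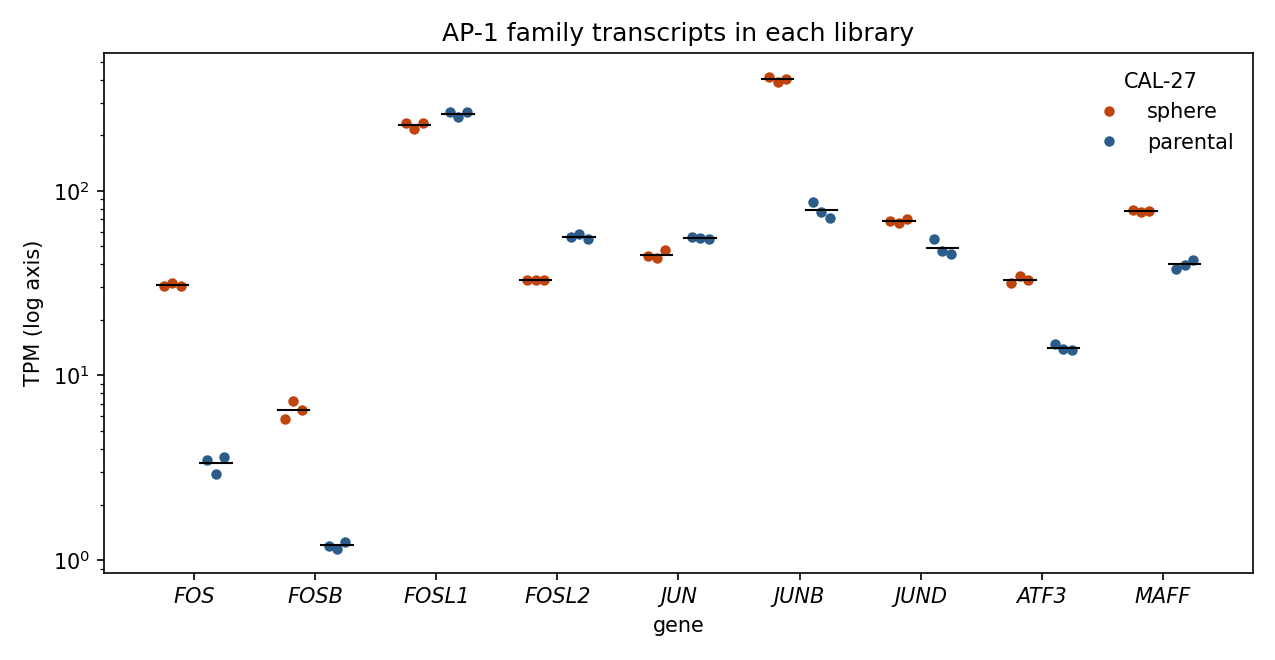
TPM (log axis) of each AP-1 gene in the 3 sphere libraries (left, orange) and the 3 parental libraries (right, blue) of CAL-27 cells; points are libraries and black lines are group means. FOS sits near 30.9 TPM in sphere libraries and 3.34 TPM in parental libraries, and JUNB near 403 TPM in sphere libraries and 78.3 TPM in parental libraries, while FOSL1 stays at 217 TPM or more in every library.

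FOS, the founding FOS-family gene, had 30.4, 31.9 and 30.4 TPM in sphere libraries, against 3.50, 2.92 and 3.60 TPM in parental libraries. Every sphere library was far above every parental library, and the ratio of mean TPM was 9.24. The log2 difference was 2.88 (SE 0.076, limma adjusted p = 4.9e-10), and 1.92% of tested genes had a larger rise. On the scale with a smaller pseudocount of 0.1 it was 3.18, since the added 1 shortens the difference of a gene this low in parental cells.

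FOSB, the close relative of FOS that is induced with it, was the least abundant member in both groups. It had 5.81, 7.26 and 6.52 TPM in sphere libraries, against 1.2, 1.15 and 1.26 TPM in parental libraries. The ratio of mean TPM was 5.43 and the log2 difference 1.77 (SE 0.098, limma adjusted p = 7.7e-08), and 5.46% of tested genes rose more. FOSB thus rose in every sphere library but stayed at a low level, above only 46.0% of the listed genes there. The sphere libraries also spread more for FOSB than for FOS, with a coefficient of variation of 11.1% for FOSB and 2.80% for FOS.

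FOSL1, which encodes FRA-1 and is known for high levels in squamous carcinoma lines, was the most abundant FOS-family transcript in every library. It had 232, 217 and 233 TPM in sphere libraries, against 268, 250 and 266 TPM in parental libraries. The groups did not overlap, yet the ratio of mean TPM was only 0.869 and the log2 difference was -0.20 (SE 0.043, limma adjusted p = 0.00149). Relative to the median of all tested genes it was -0.07, and with median-of-ratios scaling it was -0.05 (limma adjusted p = 0.354), so the call of a lower FOSL1 rests on the scaling. FOSL1 stood above 96.6% of listed genes in both groups.

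FOSL2, which encodes FRA-2, had the largest fall of the family. It had 33.0, 32.9 and 33.0 TPM in sphere libraries, against 56.0, 58.7 and 54.9 TPM in parental libraries. The ratio of mean TPM was 0.583 and the log2 difference -0.76 (SE 0.044, limma adjusted p = 1.1e-07), or -0.61 with median-of-ratios scaling. A larger fall was seen in 22.1% of tested genes.

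JUNB, a JUN-family protein that activates more weakly than JUN at single AP-1 elements and often opposes it, showed the largest gain in TPM of the 9 genes. It had 415, 390 and 404 TPM in sphere libraries, against 87.0, 76.5 and 71.4 TPM in parental libraries. The lowest sphere library was several times the highest parental library. The ratio of mean TPM was 5.14 and the log2 difference 2.35 (SE 0.065, limma adjusted p = 6.8e-10), and 3.15% of tested genes rose more. JUNB went above 98.2% of listed genes in sphere libraries, against 88.2% in parental libraries.

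JUN, the classical activating partner of FOS, had 44.1, 43.5 and 47.9 TPM in sphere libraries, against 56.5, 55.3 and 54.9 TPM in parental libraries. The ratio of mean TPM was 0.813 and the log2 difference -0.29 (SE 0.049, limma adjusted p = 2.8e-04). Relative to the median of all tested genes this was -0.16, and with median-of-ratios scaling it was -0.14 (limma adjusted p = 0.0152). JUN was therefore slightly lower in sphere libraries while FOS, with which it is usually induced, was higher.

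JUND, the JUN-family member that is usually expressed without induction, had 68.2, 66.7 and 70.0 TPM in sphere libraries, against 54.5, 47.2 and 45.2 TPM in parental libraries. The log2 difference was 0.48 (SE 0.066, limma adjusted p = 7.8e-05) and the ratio of mean TPM 1.40. Such a difference was common, since 24.3% of tested genes rose more.

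ATF3 had 31.7, 34.8 and 32.7 TPM in sphere libraries, against 14.8, 13.9 and 13.7 TPM in parental libraries. The ratio of mean TPM was 2.34 and the log2 difference 1.17 (SE 0.057, limma adjusted p = 3.2e-08). MAFF had 78.6, 76.8 and 77.7 TPM in sphere libraries, against 37.7, 39.6 and 42.4 TPM in parental libraries. Its ratio of mean TPM was 1.95 and its log2 difference 0.95 (SE 0.050, limma adjusted p = 5.6e-08). In both genes all 3 sphere libraries lay above all 3 parental libraries, and 10.2% of tested genes rose more than ATF3 and 13.4% more than MAFF.

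**Figure D2:**
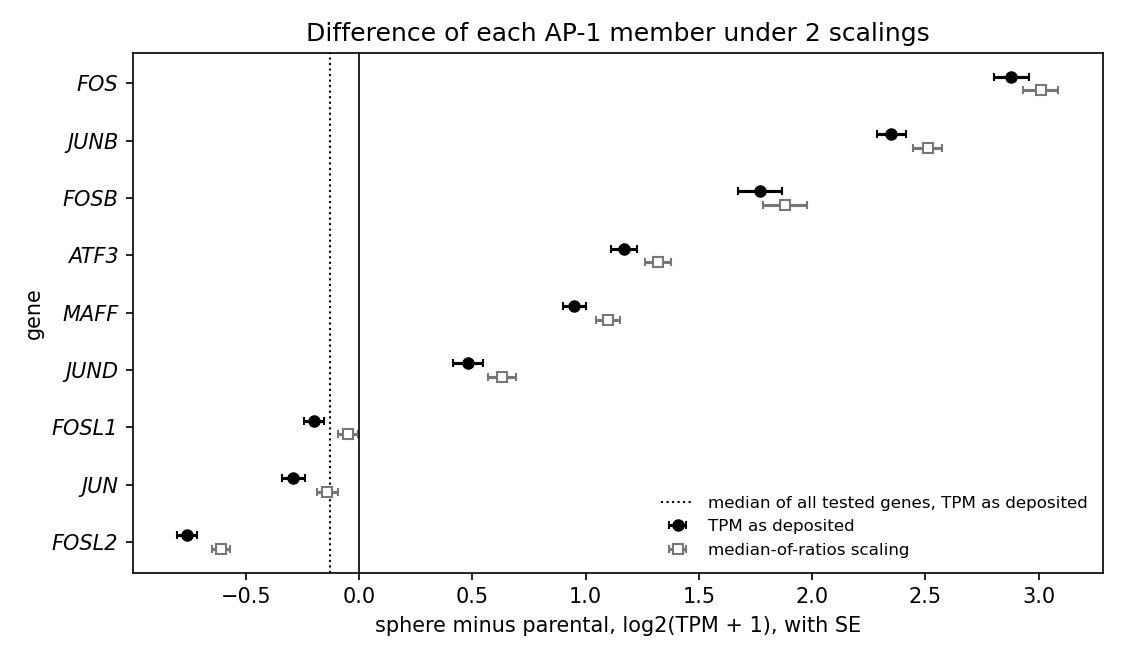
Log2(TPM + 1) difference, sphere minus parental, of each AP-1 gene with its SE (n = 3 libraries each), for TPM as deposited (filled circles) and after median-of-ratios scaling (open squares); the dotted line is the median of all tested genes. FOS, at 2.88 and 3.01, and JUNB, at 2.35 and 2.51, are farthest to the right under both scalings, and FOSL1 comes close to 0, at -0.05, after scaling.

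Reads of genes that overlap cannot be divided with certainty, because the sources used here do not say whether strand was used. In the RefSeq table the interval of JUNB touches that of HOOK2, and the interval of MAFF touches that of TMEM184B. HOOK2 was at 27.1 ± 2.2 TPM in sphere libraries and 27.2 ± 1.1 TPM in parental libraries (limma adjusted p = 0.911). TMEM184B was at 74.9 ± 3.9 TPM in sphere libraries and 74.5 ± 0.5 TPM in parental libraries (limma adjusted p = 0.907). Scaled by median of ratios, HOOK2 differed by 0.14 on the log2 scale (limma adjusted p = 0.0682) and TMEM184B by 0.16, which then passed (limma adjusted p = 0.00781). The part of shared reads in the JUNB and MAFF values was not tested. FOSL2 overlaps FOSL2-AS1, which was not analysed here.

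The order of the members by level changed. In sphere libraries it ran from JUNB (403 ± 12.7 TPM) and FOSL1 (227 ± 8.7 TPM) through MAFF (77.7 ± 0.9 TPM), JUND (68.3 ± 1.7 TPM) and JUN (45.2 ± 2.4 TPM) to ATF3 (33.1 ± 1.5 TPM), FOSL2 (33.0 ± 0.05 TPM), FOS (30.9 ± 0.9 TPM) and FOSB (6.53 ± 0.72 TPM). In parental libraries it ran from FOSL1 (261 ± 9.8 TPM) and JUNB (78.3 ± 8.0 TPM) through FOSL2 (56.5 ± 2.0 TPM), JUN (55.5 ± 0.8 TPM), JUND (48.9 ± 4.9 TPM) and MAFF (39.9 ± 2.4 TPM) to ATF3 (14.1 ± 0.6 TPM), FOS (3.34 ± 0.37 TPM) and FOSB (1.2 ± 0.06 TPM). Neighbours in these orders had separate ranges except for ATF3 and FOSL2 in sphere libraries and FOSL2 and JUN in parental libraries. JUNB thus stood above FOSL1 in all 3 sphere libraries and below it in all 3 parental libraries.

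Shares within a library do not depend on how libraries are scaled, and they showed where the family's make-up differed. These shares are descriptions with no test, since the genes summed were chosen with earlier results known. JUNB made up 78.7, 78.0 and 77.4% of the summed TPM of JUN, JUNB and JUND in sphere libraries, against 43.9, 42.8 and 41.6% in parental libraries. JUN itself made up 8.74 ± 0.41% of that sum in sphere libraries and 30.5 ± 1.8% in parental libraries, and JUND 13.2 ± 0.3% in sphere libraries and 26.7 ± 0.7% in parental libraries (SD, n = 3 each). The 3 JUN-family genes were therefore closer in level in parental libraries than in sphere libraries, where JUNB led. The ratio of JUNB to JUN was 9.41, 8.96 and 8.44 in sphere libraries, against 1.54, 1.38 and 1.30 in parental libraries.

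In the FOS family the leading gene stayed the same. FOSL1 made up 77.0, 75.1 and 76.9% of the summed TPM of the 4 FOS-family genes in sphere libraries, against 81.5, 79.9 and 81.7% in parental libraries. FOS made up 10.4 ± 0.6% in sphere libraries and 1.03 ± 0.09% in parental libraries (SD, n = 3 each), with no overlap. FOSL2 made up 11.1 ± 0.3% in sphere libraries and 17.5 ± 1.1% in parental libraries, and FOSB 2.20 ± 0.29% in sphere libraries and 0.373 ± 0.012% in parental libraries. FOS transcripts were thus a minority beside FOSL1 even in sphere libraries, where the ratio of FOS to FOSL1 was 0.136 ± 0.009, against 0.0128 ± 0.0010 in parental libraries.

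The sums moved apart as well. JUN-family TPM summed to 527, 500 and 522 in sphere libraries, against 198, 179 and 172 in parental libraries, a ratio of means of 2.82. FOS-family TPM summed to 301, 289 and 303 in sphere libraries, against 328, 313 and 326 in parental libraries, a ratio of means of 0.923. Most of this FOS-family sum was FOSL1, whose lower call rests on the scaling, and the sum was not rescaled. The ratio of FOS-family to JUN-family TPM was 0.576 ± 0.005 in sphere libraries and 1.77 ± 0.12 in parental libraries, with no overlap. Summed transcripts of the JUN family thus exceeded those of the FOS family in every sphere library, and the reverse held in every parental library. All 9 genes together came to 925 ± 21.0 TPM in sphere libraries and 559 ± 17.4 TPM in parental libraries.

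**Figure D3:**
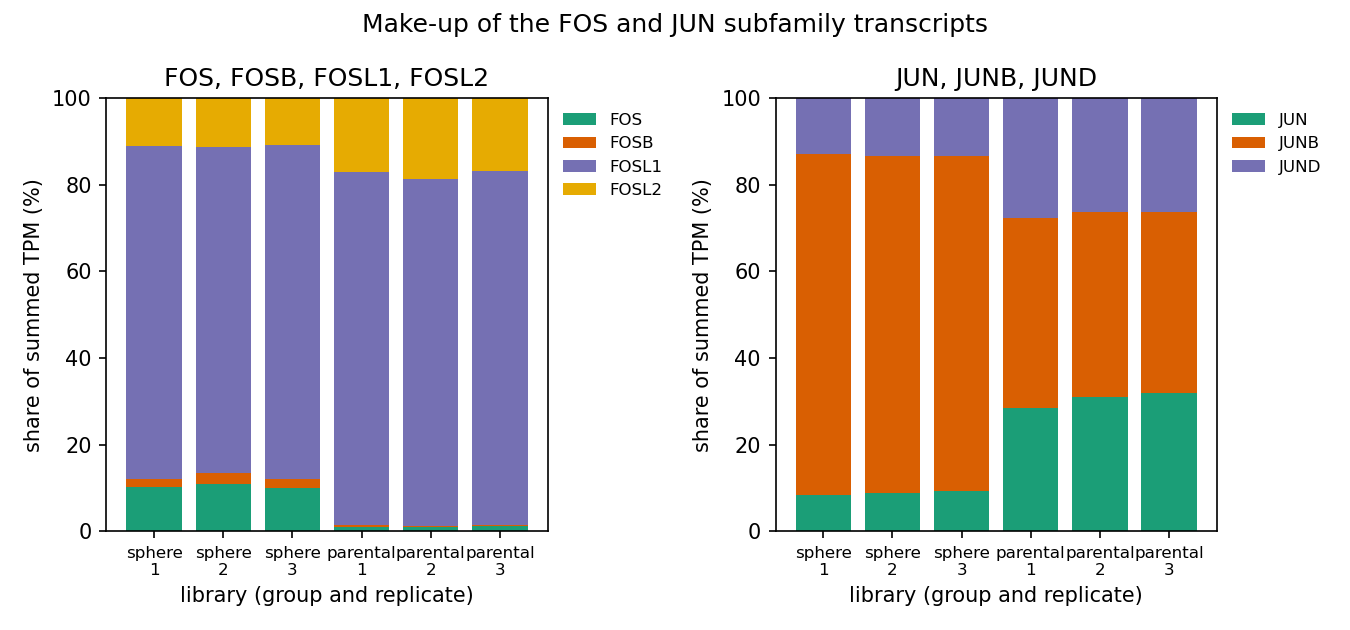
Share (%) of each gene in the summed TPM of the FOS family (left panel) and the JUN family (right panel), 1 bar per library, with the 3 sphere libraries left of the 3 parental libraries. JUNB fills 77.4 to 78.7% of the JUN-family bar in sphere libraries and 41.6 to 43.9% in parental libraries, while FOSL1 leads the FOS-family bar in all 6.

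The start regions of 6 members are shown because 4 of them, FOS, FOSB, JUNB and ATF3, rose at least 2-fold and the other two, JUN and FOSL2, were lower. The bases are the 250 upstream of a RefSeq start site in GRCh38.p14, read 5′ to 3′ on the gene's strand. ATF3 has more than one such site, and only the upstream one is shown. They come from chr14:75278578-75278827 (plus strand, FOS), chr19:45467746-45467995 (plus, FOSB), chr19:12791236-12791485 (plus, JUNB), chr1:212565157-212565406 (plus, ATF3), chr1:58784048-58784297 (minus, JUN) and chr2:28392608-28392857 (plus, FOSL2). Capitals mark TGACG, the first letters of the cyclic AMP response element bound by CREB and ATF proteins, on either strand, and TGACATCA, an AP-1-like element known from the JUN promoter.
FOS: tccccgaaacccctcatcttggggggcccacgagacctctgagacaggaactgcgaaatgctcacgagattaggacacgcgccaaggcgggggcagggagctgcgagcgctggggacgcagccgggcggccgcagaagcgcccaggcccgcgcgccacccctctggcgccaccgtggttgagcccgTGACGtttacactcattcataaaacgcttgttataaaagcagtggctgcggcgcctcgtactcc
FOSB: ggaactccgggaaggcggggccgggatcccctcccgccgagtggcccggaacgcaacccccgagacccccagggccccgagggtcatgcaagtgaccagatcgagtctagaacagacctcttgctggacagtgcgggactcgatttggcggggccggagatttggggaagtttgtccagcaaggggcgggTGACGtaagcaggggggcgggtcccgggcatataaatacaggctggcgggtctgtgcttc
JUNB: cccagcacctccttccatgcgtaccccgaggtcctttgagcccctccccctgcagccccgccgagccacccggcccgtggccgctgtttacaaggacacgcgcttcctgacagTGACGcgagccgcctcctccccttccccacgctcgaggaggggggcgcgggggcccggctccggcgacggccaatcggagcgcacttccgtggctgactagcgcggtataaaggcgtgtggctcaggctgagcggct
ATF3: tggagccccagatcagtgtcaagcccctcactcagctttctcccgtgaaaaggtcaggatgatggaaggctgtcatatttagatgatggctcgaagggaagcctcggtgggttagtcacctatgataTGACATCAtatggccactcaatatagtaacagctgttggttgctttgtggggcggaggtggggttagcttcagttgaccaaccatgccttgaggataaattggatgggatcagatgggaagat
JUN: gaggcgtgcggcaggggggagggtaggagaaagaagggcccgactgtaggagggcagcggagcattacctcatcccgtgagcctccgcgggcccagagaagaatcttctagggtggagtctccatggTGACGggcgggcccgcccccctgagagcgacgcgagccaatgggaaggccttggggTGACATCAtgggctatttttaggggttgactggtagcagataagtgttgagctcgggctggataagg
FOSL2: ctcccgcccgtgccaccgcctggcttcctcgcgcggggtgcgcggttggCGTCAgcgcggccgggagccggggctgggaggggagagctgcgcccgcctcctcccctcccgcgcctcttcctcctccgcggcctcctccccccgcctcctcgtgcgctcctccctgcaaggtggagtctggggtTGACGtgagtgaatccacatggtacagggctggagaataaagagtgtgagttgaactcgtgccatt

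RefSeq start windows were at hand for 8 of the 9 members, and FOSL1 had none in the table. Each window held 300 bases, 250 before and 50 after the start site, and both strands were searched. ATF3 and MAFF had 2 windows each, so the 8 members had 10. The letters TGACG were found in 7 of these 10 windows, each of a different member, and in 24.6% of 35116 windows of all genes. Counted from the start site, the match began at position -64 in FOS, -60 in FOSB, -137 in JUNB and -123 in JUN, and at -201 and -66 in FOSL2. Members that rose and both lower members with a window, JUN and FOSL2, thus carry it. ATF3 was the member without it. TGACG was searched only after the windows had been read, and it overlaps the full element TGACGTCA, which was found in JUND and MAFF and in 1.85% of all windows. TGACATCA was found in JUN, which was lower, and in ATF3, which was higher, and in 2.61% of all windows. In ATF3 it lay in the window of the upstream start site and not in the other window. The consensus AP-1 element TGACTCA was found in FOSL2 alone, 5 bases after the start site, and in 4.95% of all windows. The CArG box, the element bound by serum response factor, was found in no member window and in 1.29% of all windows. A CArG box more than 250 bases before the start site, in FOS or any other member, could not be seen here. These matches say only which letters lie in these windows.

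Partners of the AP-1 proteins moved in both directions. Of 19 other bZIP genes 15 were tested, 7 rose, 7 fell and MAFG did not pass, with a list median of -0.08. That is 93.3% called, against 83.4% of all tested genes, of which 35.1% rose and 48.2% fell. BACH1, a repressor that pairs with small MAF proteins such as MAFF, rose to 55.1 ± 2.1 TPM in sphere libraries, against 18.3 ± 1.7 TPM in parental libraries (log2 difference 1.54, limma adjusted p = 1.5e-08). DDIT3, the stress factor CHOP, rose to 111 ± 2.5 TPM in sphere libraries, against 38.6 ± 2.1 TPM in parental libraries (1.5, limma adjusted p = 1.9e-09). NFE2L3, another partner of small MAF proteins, fell to 19.9 ± 0.2 TPM in sphere libraries, against 54.0 ± 2.7 TPM in parental libraries (-1.39, limma adjusted p = 4.2e-09). ATF2, which pairs with JUN at cyclic AMP type elements, fell to 19.4 ± 2.2 TPM in sphere libraries, against 36.3 ± 1.6 TPM in parental libraries (-0.87, limma adjusted p = 2.7e-06).

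Of the tested transcripts of the MAP kinase cascade that signals to AP-1, 1 was higher in sphere cells by at least 2-fold and 0 were lower by as much. Of all tested genes 12.5% were higher and 14.7% lower by at least 2-fold. Among the 26 tested genes, which run from RAS to the terminal kinases, 13 fell and 5 rose, against 48.2% and 35.1% of all tested genes. The other 8 did not pass, so that 69.2% were called, against 83.4% of all tested genes. The median of the 26 genes was -0.13, the same as for all tested genes. Under median-of-ratios scaling 8 fell and 9 rose. MAPK13, the delta isoform of p38, rose to 22.9 ± 0.6 TPM in sphere libraries, against 9.41 ± 0.39 TPM in parental libraries (log2 difference 1.2), and MAPK11, the beta isoform, rose to 22.1 ± 0.7 TPM in sphere libraries, against 11.0 ± 0.5 TPM in parental libraries (0.94). MAP2K2, which encodes MEK2, fell to 125 ± 6.7 TPM in sphere libraries, against 209 ± 12.7 TPM in parental libraries (-0.74). MAPK9, which encodes the JUN kinase JNK2, fell to 42.2 ± 2.2 TPM in sphere libraries, against 69.6 ± 0.9 TPM in parental libraries (-0.71). None of these 4 genes had a limma adjusted p above 6.6e-07. Transcript levels do not report the activity of these kinases.

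Genes that are induced by MAP kinase signalling and limit it, or that limit AP-1 mRNA, moved both ways. Of 18 genes 9 rose, each of them at least 2-fold, 6 fell, none of them 2-fold, and DUSP2, SPRED2 and SPRED3 did not pass. The called share, 83.3%, was that of all tested genes, 83.4%, among which 12.5% rose and 14.7% fell at least 2-fold. The list median was 0.99, against -0.13 for all tested genes. With median-of-ratios scaling the same number rose and 3 fell. ZFP36, which encodes tristetraprolin, a protein that speeds decay of mRNAs with AU-rich elements such as FOS, rose to 121 ± 6.3 TPM in sphere libraries, against 11.4 ± 0.9 TPM in parental libraries (log2 difference 3.30, limma adjusted p = 7.4e-11). Its relative ZFP36L2 rose to 128 ± 7.3 TPM in sphere libraries, against 13.5 ± 0.2 TPM in parental libraries (3.15, limma adjusted p = 2.6e-11). DUSP10, a phosphatase of p38 and JNK, fell to 15.9 ± 1.4 TPM in sphere libraries, against 25.0 ± 0.3 TPM in parental libraries (-0.63, limma adjusted p = 1.2e-05). DUSP4, a nuclear MAP kinase phosphatase, fell to 37.6 ± 0.3 TPM in sphere libraries, against 52.3 ± 0.8 TPM in parental libraries (-0.47, limma adjusted p = 2.6e-06).

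Factors known to act at the FOS and JUN promoters gave no common direction. Of 10 genes 5 rose, 4 fell and MRTFB did not pass, with a median of 0.17, against -0.13 for all tested genes. The called share was 90.0%, against 83.4% of all tested genes, of which 35.1% rose and 48.2% fell. ELK3, a ternary complex factor, rose to 143 ± 8.0 TPM in sphere libraries, against 40.9 ± 4.3 TPM in parental libraries (log2 difference 1.78, limma adjusted p = 1.0e-08), and MEF2A rose to 25.4 ± 0.9 TPM in sphere libraries, against 13.1 ± 0.1 TPM in parental libraries (0.90). SRF, the serum response factor itself, fell to 24.2 ± 0.9 TPM in sphere libraries, against 42.2 ± 0.4 TPM in parental libraries (-0.78), and CREB1 fell to 25.1 ± 1.1 TPM in sphere libraries, against 42.3 ± 3.4 TPM in parental libraries (-0.73). The adjusted p of the last 3 was at most 3.1e-06 in limma. SRF and FOS thus differed in opposite directions.

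Among 8 genes that govern the stability of JUN and FOS proteins 4 rose and 4 fell. A call was common among all tested genes too, of which 35.1% rose and 48.2% fell. ITCH, a ubiquitin ligase of JUN and JUNB, rose to 93.1 ± 0.1 TPM in sphere libraries, against 31.9 ± 0.5 TPM in parental libraries (log2 difference 1.52). TRIB1, an adaptor of the COP1 ligase, rose to 69.9 ± 1.4 TPM in sphere libraries, against 10.6 ± 0.5 TPM in parental libraries (2.61). COP1, which directs degradation of JUN, fell to 33.7 ± 1.7 TPM in sphere libraries, against 59.1 ± 5.0 TPM in parental libraries (-0.79). For these 3 genes the limma adjusted p was at most 2.0e-06.

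Of 25 genes known as AP-1 targets in textbooks, 23 were tested, 18 rose and 5 fell, with a list median of 1.05, and MMP3 and LORICRIN were not tested. Of all tested genes 35.1% rose and 48.2% fell, with a median of -0.13. At least 2-fold, 12 of the list rose and 5 fell, against 12.5% and 14.7% of all tested genes. SPRR1B, a cornified envelope precursor, rose to 3563 ± 89.0 TPM in sphere libraries, against 8.44 ± 0.50 TPM in parental libraries (log2 difference 8.56, limma adjusted p = 2.4e-14). MMP1, interstitial collagenase, rose to 1841 ± 40.2 TPM in sphere libraries, against 5.88 ± 0.66 TPM in parental libraries (8.07, limma adjusted p = 2.2e-13). MMP13, also a collagenase, fell to 0.647 ± 0.1 TPM in sphere libraries, against 8.42 ± 0.68 TPM in parental libraries (-2.52, limma adjusted p = 5.8e-09). The cytokine IL6 fell to 1.5 ± 0.15 TPM in sphere libraries, against 38.4 ± 1.3 TPM in parental libraries (-3.98, limma adjusted p = 4.8e-11). The same list thus held wide differences in both directions, and which of them follow AP-1 binding was not measured.

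Immediate early genes are also known outside AP-1, and of 15 listed 14 rose and CCN1 fell, with a median of 1.18. Among the AP-1 members FOS, FOSB, JUNB and ATF3 were higher, but JUN, which is usually induced with FOS, was lower (log2 difference -0.29). These are levels in 2 groups, and induction was not measured. Of all tested genes 35.1% rose and 48.2% fell, with a median of -0.13. EGR1, a zinc finger factor induced alongside FOS, rose to 113 ± 4.3 TPM in sphere libraries, against 28.9 ± 1.9 TPM in parental libraries (log2 difference 1.93, limma adjusted p = 8.5e-10).

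**Figure D4:**
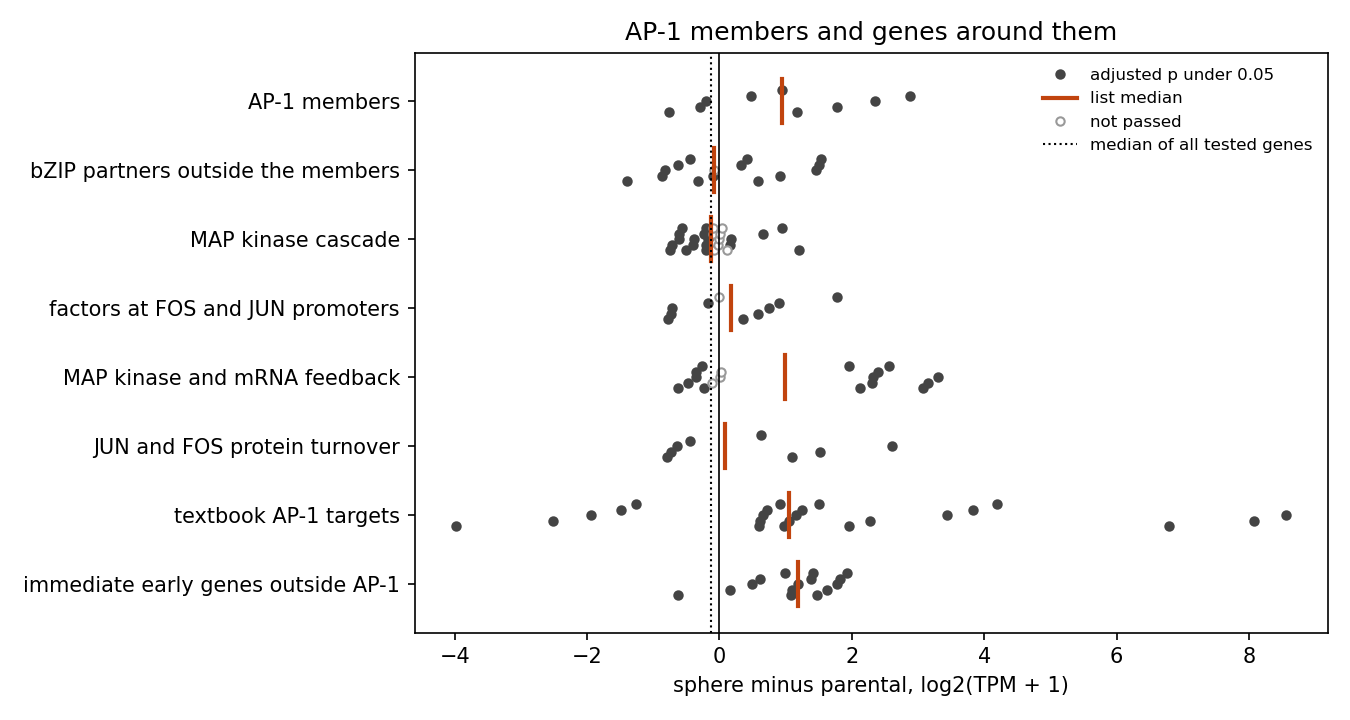
Log2(TPM + 1) difference, sphere minus parental, of each tested gene in the AP-1 family and in 7 lists of genes around it; filled points passed an adjusted p of 0.05 in limma, open points did not, orange bars are list medians and the dotted line is the median of all tested genes, at -0.13. The AP-1 median lies at 0.95, the feedback median at 0.99 and the median of the MAP kinase cascade at -0.13.

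The 3 genes whose levels over the 6 libraries were closest to those of FOS, by Euclidean distance between log2(TPM + 1) values, were SERPINB4 (distance 0.328), PDGFA (0.372) and HOXD10 (0.498). SERPINB4 stood at 29.0 ± 1.3 TPM in sphere libraries and 3.40 ± 0.79 TPM in parental libraries, and it has a near-identical relative, so its share of reads is uncertain. The 3 closest to FOSL2, the member with the largest fall, were TRIM26 (0.095), ABHD2 (0.106) and SNX8 (0.110). With 2 groups of libraries such a distance reflects little more than the 2 group levels.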

How the data were processed

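Per the labels' protocols, total RNA of CAL-27 cells gave single-end reads of 50 bases (BGISEQ-500). The authors deposited TPM for 17110 genes, to 2 decimals. HISAT, Bowtie2 and the mouse build GRCm38.p6 appear in the submitters' processing notes, but 17052 of the gene IDs matched human RefSeq genes (GRCh38.p14), so the build behind the values is unclear. How reads were counted, and whether by strand, is not stated in the labels.

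The 12261 genes that averaged at least 1 TPM entered a two-sided test on log2(TPM + 1), sphere minus parental, with limma 3.58.1 in R 4.3.3 (lmFit, eBayes with a mean-variance trend) and Benjamini-Hochberg adjustment over all tested genes (threshold 0.05; degrees of freedom 4 residual, 5.26 prior at the median). The fit was also run on simulated data in which 12061 of 12261 genes were unchanged, and 0.0249% of these were called. It called 24.0% of simulated log2 differences of 0.25, 56.0% of those of 0.5 and 100.0% of those of 1 or 2. That setting differs from these data, where 83.4% of tested genes were called. Other steps used Python 3.11.15 with pandas 2.3.3. Named genes are all 9 members, up to 2 of the largest rises and 2 of the largest falls of each pathway list among genes that passed with groups that do not overlap, the highest marker of each other cell type and the 3 nearest profiles of 2 members; of the immediate early list only EGR1 and CCN1 are given. KRT5, KRT14, KRT8, EPCAM, KRT18, PDGFRB, COL1A2, PDGFRA, HOOK2 and TMEM184B were named outside this rule. A gene that the rule names among the turnover genes is not reported here. The members and lists were chosen with earlier results of these data known. Protein sequences were not used here. Alternatives changed the pseudocount (0.1), the filter (none, or 5 TPM), the scaling (median of ratios), the variance prior (robust, or no trend) or the weights (per array), added a replicate block, or left out 1 library.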

Additional observations from a re-analysis of the deposited data

How the results depend on the processing

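All alternatives were planned. Of the 9 AP-1 genes, 9 passed as reported and 8 to 9 under the alternatives; FOSB was not tested with a mean of at least 5 TPM, and FOSL1 was lost with median-of-ratios scaling (-0.05, adjusted p = 0.354; limma). No member changed sign. When 1 library was left out all 9 passed, with FOSL1 at -0.23 to -0.17 and JUN at -0.34 to -0.27. With median-of-ratios scaling 9 MAP kinase cascade genes rose (5 as reported) and 8 fell (13), and 3 feedback genes fell (6), since that scaling raises the median of all tested genes by 0.14. Over all alternatives 8485 to 11503 genes of the whole table passed. The JUNB share of the JUN family stayed at 77.7 to 78.3% in sphere libraries and 42.2 to 43.3% in parental libraries with 1 library left out. A replicate block gave 9 members and 10192 genes; same-numbered libraries deviated together with correlations of -0.055 to 0.018, so no shared effect of the number was seen. TPM keep no depth, and the spread of 3 libraries limits the precision.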

Other observations

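The coefficient of variation of TPM was 2.80% in sphere libraries and 11.0% in parental libraries for FOS, 3.16% in sphere and 10.2% in parental libraries for JUNB, and 2.42% in sphere and 9.98% in parental libraries for JUND. It was also higher in parental libraries for FOSL2 and MAFF, 5 of the 9 genes in all. For the other 4 it was higher in sphere libraries, at 11.1% in sphere and 4.58% in parental libraries for FOSB, 5.32% in sphere and 1.53% in parental libraries for JUN, 4.65% in sphere and 4.08% in parental libraries for ATF3, and 3.81% in sphere and 3.74% in parental libraries for FOSL1. Parental replicate 1 had the highest TPM of JUN, JUNB and JUND within its group, at 56.5, 87.0 and 54.5 TPM. Sphere replicate 2 had the lowest TPM of 6 of the 9 genes within its group and the highest of 3. Over all 9 genes its deviations from the group mean ran from -0.06 to 0.14 on the log2 scale.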
